A study of Rattus norvegicus with 10 samples.

Results

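Kupffer cells, the resident macrophages of the liver, and macrophages in general are followed here through 10 marker genes in the livers of irradiated rats: Clec4f, Vsig4, Cd163, Marco, Cd5l, Cd68, Adgre1, C1qa, C1qb and C1qc. A marker of that list was measured where a non-control array probe had an accession that gives its symbol. Such probes were present for 9 of the 10 markers (12 of 41012 probes), and Cd5l had none. Counts of members below are over these 9. The livers came from male Wistar rats on 1-colour Agilent rat gene expression arrays, 1 rat to an array and 10 arrays in all. The 3 control rats were not irradiated, the 3 TBI rats received total-body irradiation from a cobalt source at a dose of 6.5 Gy in the labels, and the 4 MASM + TBI rats received the same irradiation after MASM, a derivative of the plant alkaloid matrine, given intragastrically in water at 30 mg/kg a day for the 3 days before it. Livers were taken 24 h after irradiation. The dose is in doubt, since the study's text gives other doses than the labels. Rats given MASM without irradiation were not analysed here, so each difference between MASM + TBI and TBI rats is a difference among irradiated animals.

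Kupffer cells line the liver sinusoids, where they remove bacteria, immune complexes, ageing red cells and cell debris from portal blood. They carry lectins and scavenger receptors for this task, are a main source of the complement protein C1q, and are kept up by local proliferation and by monocytes from the marrow, a tissue that is sensitive to radiation. The markers fall into those that are largely restricted to Kupffer cells (Clec4f, Vsig4), scavenger receptors (Cd163, Marco), markers shared by most macrophages (Cd68, Adgre1) and the 3 chains of C1q (C1qa, C1qb, C1qc). In RNA from whole liver, fewer cells of a type and less RNA per cell cannot be told apart.

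The promoters of a pair of C1q genes are shown because the C1q chains kept close to each other from rat to rat in the values given below. That of Cd68, a marker shared by most macrophages, is shown beside them. The sequences are those of RefSeq, build GRCr8, from 250 bases before to 50 bases from the gene start, and 9 of the 10 listed markers had one, all but C1qc and with Cd5l included. Capitals mark GAGGAA, a core of sites for the myeloid factor PU.1, and TGCTGA, an arm of the palindromic MARE element bound by Maf factors, each searched on both strands, and no base lay in more than 1 match. The promoter of C1qa lies at chr5:154419884-154420183 on the minus strand, that of C1qb at chr5:154407778-154408077 on the minus strand, and that of Cd68 at chr10:54882392-54882691 on the minus strand.
C1qa: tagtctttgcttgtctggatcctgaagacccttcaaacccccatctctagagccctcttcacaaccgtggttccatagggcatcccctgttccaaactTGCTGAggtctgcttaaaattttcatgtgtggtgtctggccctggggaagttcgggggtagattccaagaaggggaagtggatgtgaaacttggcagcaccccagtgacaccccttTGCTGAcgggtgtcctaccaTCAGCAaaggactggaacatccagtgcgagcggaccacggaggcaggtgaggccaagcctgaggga
C1qb: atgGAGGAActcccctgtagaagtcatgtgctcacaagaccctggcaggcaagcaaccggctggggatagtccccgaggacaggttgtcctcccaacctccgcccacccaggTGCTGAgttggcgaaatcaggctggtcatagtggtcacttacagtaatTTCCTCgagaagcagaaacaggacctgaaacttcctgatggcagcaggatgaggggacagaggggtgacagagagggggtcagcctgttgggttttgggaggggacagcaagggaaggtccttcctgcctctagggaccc
Cd68: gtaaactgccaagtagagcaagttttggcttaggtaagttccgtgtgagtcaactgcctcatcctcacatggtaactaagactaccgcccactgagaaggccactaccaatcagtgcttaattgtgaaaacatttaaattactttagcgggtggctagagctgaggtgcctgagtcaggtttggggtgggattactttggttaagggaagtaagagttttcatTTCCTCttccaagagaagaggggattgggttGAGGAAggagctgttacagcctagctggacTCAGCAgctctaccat
GAGGAA was found in 5 of these 9 promoters (Adgre1, C1qb, Cd5l, Cd68 and Marco) and in 27.6% of all 33469 promoters of the same length. TGCTGA was found in 6 of the 9 (Adgre1, C1qa, C1qb, Cd5l, Cd68 and Vsig4) and in 18.4% of all promoters. C1qa held 3 matches to TGCTGA and 0 to GAGGAA, whereas C1qb held 1 and 2. These are matches of letters and not sites of binding.

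All 12 member probes were well above background on all 10 arrays, and no spot on any array was saturated. Between 56.2% and 70.1% of the spots of an array were well above background, with the 3 TBI arrays at 64.1% to 70.1% and the other 7 at 56.2% to 60.2%. The 3 TBI rats were hybridised on a slide of their own, the 3 control rats shared a slide with MASM + TBI rat 3, and MASM + TBI rats 1, 2 and 4 were together on another slide. Slide and irradiation without MASM therefore cannot be told apart in any comparison with the TBI group. The TBI rats differed among themselves: Cd74, the invariant chain of MHC class II, had a log2 signal of 10.86 in TBI rat 1, and of 15.29 and 15.38 in TBI rats 2 and 3. The value of TBI rat 1 lay among the MASM + TBI rats (10.36 to 11.28) and below all 3 controls (11.84 to 12.60). The array of TBI rat 3 had a median signal before normalization of 56.6, beside 26.3 to 35.7 on the other 9. Counts of members and of related macrophage genes in comparisons with TBI rats are therefore also given without single TBI rats. All values below are log2 of the processed signal after quantile normalization, in which a difference of 1 is a doubling, and levels are compared between rats and never between genes.

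Clec4f, a C-type lectin found on Kupffer cells, had log2 signals of 15.27, 15.73 and 15.43 in control rats 1 to 3, of 15.16, 16.04 and 15.56 in TBI rats 1 to 3, and of 15.16, 15.18, 15.01 and 14.86 in MASM + TBI rats 1 to 4. All 4 MASM + TBI rats lay below all 3 controls, and TBI rat 1 lay among the MASM + TBI rats while TBI rats 2 and 3 lay above them. The mean difference from controls was 0.11 ± 0.22 (SE) in TBI rats and -0.42 ± 0.20 (SE) in MASM + TBI rats, and MASM + TBI rats differed from TBI rats by -0.53 ± 0.20 (SE). The adjusted p of limma for these differences was 0.801, 0.347 and 0.234.

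Vsig4, the complement receptor with which Kupffer cells bind C3-coated particles, had log2 signals of 8.83, 9.62 and 9.23 in control rats 1 to 3, of 9.46, 9.50 and 9.56 in TBI rats 1 to 3, and of 9.55, 9.32, 9.27 and 9.29 in MASM + TBI rats 1 to 4. The TBI rats differed little among themselves (SD 0.05, n = 3), the controls spread widely (SD 0.39, n = 3), and all groups overlapped. The difference between MASM + TBI and TBI rats was -0.15 ± 0.17 (SE), with a 95% confidence interval from -0.54 to 0.23 (limma, adjusted p = 0.687).

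Cd163, the receptor for haemoglobin bound to haptoglobin, had log2 signals of 7.55, 8.47 and 8.06 in control rats 1 to 3, of 8.12, 8.22 and 7.65 in TBI rats 1 to 3, and of 8.10, 8.04, 7.95 and 7.74 in MASM + TBI rats 1 to 4. The groups overlapped throughout, with the lowest and the highest value both among the controls. Its difference between MASM + TBI and TBI rats was the smallest of the 9 members at -0.04 ± 0.22 (SE), with a 95% confidence interval from -0.55 to 0.47 (limma, adjusted p = 0.952). The dimmer of its 2 probes gave -0.18 ± 0.22 (SE, adjusted p = 0.735).

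Marco, a scavenger receptor that binds bacteria, had log2 signals of 10.09, 10.57 and 10.61 in control rats 1 to 3, of 10.46, 11.75 and 10.96 in TBI rats 1 to 3, and of 10.75, 10.23, 9.83 and 9.99 in MASM + TBI rats 1 to 4. TBI rats 2 and 3 had the highest values of all 10 rats, and TBI rat 1 lay within the range of the controls. The difference between MASM + TBI and TBI rats was -0.86 ± 0.33 (SE), with a 95% confidence interval from -1.61 to -0.11 (limma, unadjusted p = 0.0287, adjusted p = 0.231). Against controls, the difference was 0.64 ± 0.35 (SE) in TBI rats and -0.22 ± 0.33 (SE) in MASM + TBI rats.

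Cd68, a glycoprotein of macrophage lysosomes, had log2 signals of 12.46, 13.22 and 12.99 in control rats 1 to 3, of 12.83, 13.75 and 13.46 in TBI rats 1 to 3, and of 12.62, 12.66, 12.20 and 12.34 in MASM + TBI rats 1 to 4. All 4 MASM + TBI rats lay below all 3 TBI rats, while both groups overlapped with the controls. The difference between MASM + TBI and TBI rats was -0.89 ± 0.25 (SE), which is 1.85-fold lower with a 95% confidence interval of 1.24 to 2.77 (limma, unadjusted p = 0.00752, adjusted p = 0.137). Against controls, it was 0.46 ± 0.27 (SE) in TBI rats and -0.43 ± 0.25 (SE) in MASM + TBI rats.

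Adgre1, an adhesion receptor of the macrophage surface, had log2 signals of 8.97, 9.61 and 9.06 in control rats 1 to 3, of 9.21, 10.71 and 10.86 in TBI rats 1 to 3, and of 9.58, 9.27, 9.13 and 8.82 in MASM + TBI rats 1 to 4. TBI rats 2 and 3 lay above all other rats, whereas TBI rat 1 lay within the range of both other groups. The TBI group therefore had the widest spread of any member in any group (SD 0.91, n = 3). The difference between TBI and control rats was 1.05 ± 0.42 (SE), 2.06-fold higher with a 95% confidence interval of 1.06 to 4.03 (limma, unadjusted p = 0.0367, adjusted p = 0.181). MASM + TBI rats differed from TBI rats by -1.06 ± 0.39 (SE, adjusted p = 0.223) and from controls by -0.01 ± 0.39 (SE, adjusted p = 1.00).

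C1qa, the A chain of C1q, the protein that recognises immune complexes and starts the classical complement pathway, had log2 signals of 13.61, 14.42 and 14.20 in control rats 1 to 3, of 13.78, 14.67 and 14.42 in TBI rats 1 to 3, and of 13.57, 13.77, 13.45 and 13.30 in MASM + TBI rats 1 to 4. The MASM + TBI rats lay below the TBI rats with the brighter probe, by a margin of hundredths at TBI rat 1, and overlapped with them with the dimmer probe. C1qb, the B chain, had log2 signals of 14.90, 15.62 and 15.36 in control rats 1 to 3, of 15.05, 15.91 and 15.73 in TBI rats 1 to 3, and of 14.91, 15.05, 14.69 and 14.65 in MASM + TBI rats 1 to 4. C1qc, the C chain, had log2 signals of 10.83, 11.55 and 11.49 in control rats 1 to 3, of 10.99, 11.83 and 11.63 in TBI rats 1 to 3, and of 10.82, 11.00, 10.74 and 10.60 in MASM + TBI rats 1 to 4. For C1qb and the brighter C1qc probe TBI rat 1 lay just inside the range of the MASM + TBI rats, and TBI rats 2 and 3 lay above every other rat. With the dimmer C1qc probe TBI rat 1 (9.39) lay just above all MASM + TBI rats, and TBI rat 3 (9.90) lay below control rats 2 and 3.

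The C1q chains moved as one from rat to rat. Taken as the deviation of a rat from the mean of each chain over all 10 rats, the chains differed from each other by 0.02 to 0.17 within a rat, while their mean deviation ran from -0.56 in MASM + TBI rat 4 to 0.72 in TBI rat 2. The differences between MASM + TBI and TBI rats were accordingly close: -0.77 ± 0.25 (SE, adjusted p = 0.177) for C1qa, -0.74 ± 0.24 (SE, adjusted p = 0.173) for C1qb and -0.69 ± 0.24 (SE, adjusted p = 0.194) for C1qc, all by limma. The second probes gave -0.61 ± 0.26 (SE) for C1qa and -0.66 ± 0.26 (SE) for C1qc. Against controls, the chains differed by 0.19 to 0.27 in TBI rats and by -0.55 to -0.47 in MASM + TBI rats, with adjusted p from 0.316 to 0.690. The dimmer probes gave 0.03 for C1qa and 0.22 for C1qc in TBI rats, and -0.58 and -0.44 in MASM + TBI rats.

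**Figure D1:**
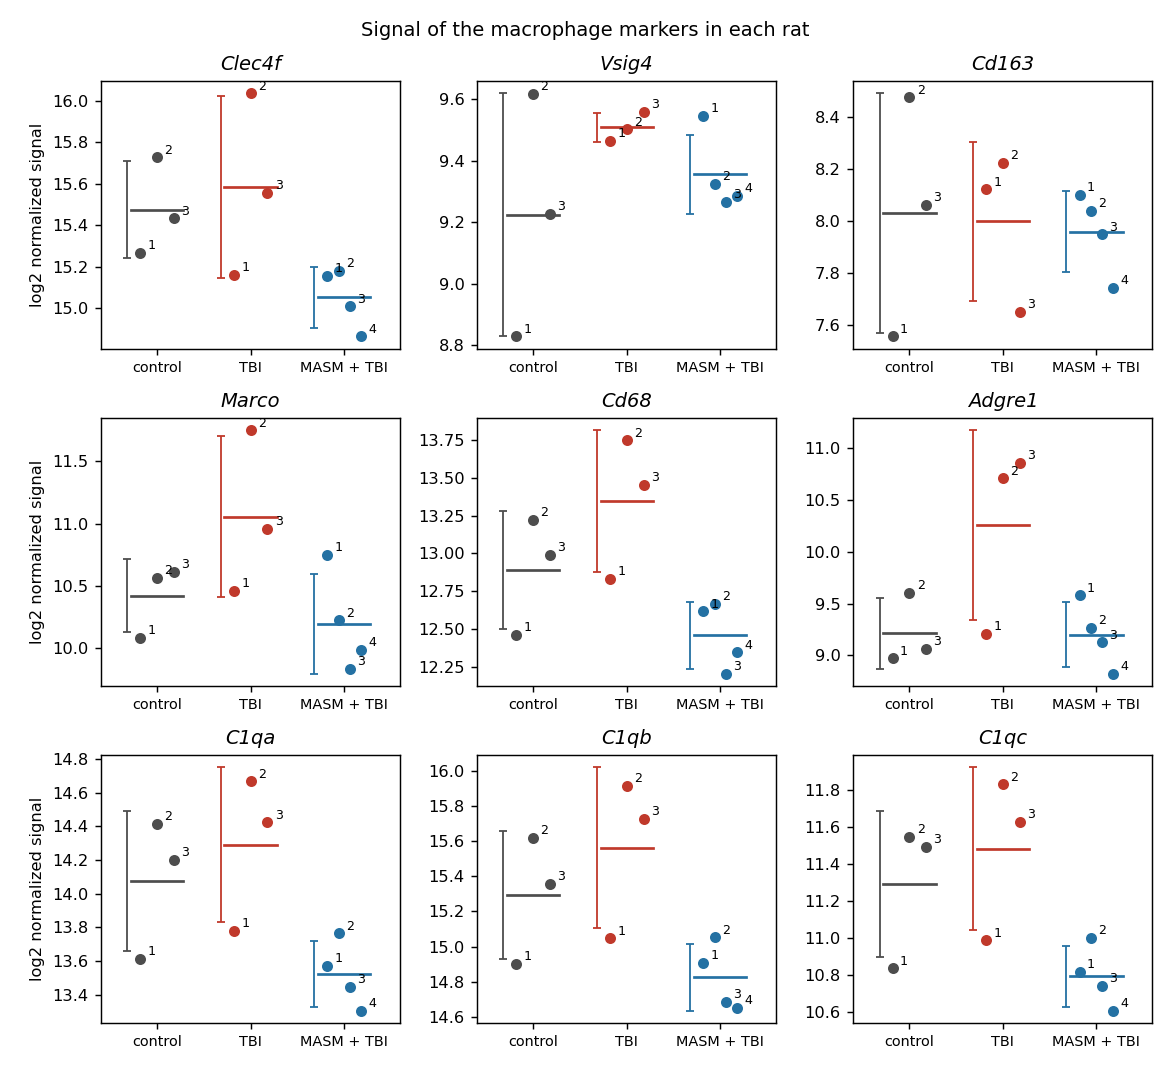
Log2 normalized signal of the 9 measured markers in each of the 10 rats, by group on the horizontal axis, with the brightest probe of each gene; numbers are the rats, horizontal lines the group means and vertical bars 1 SD on either side of them, and each panel has its own scale. Control rat 1 is the lowest control in all 9 panels, and TBI rat 1 is the lowest TBI rat in 8 of them.

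The markers also shared an order of rats within a group. Control rat 1 had the lowest control value for 9 of 9 members (12 of 12 probes) and control rat 2 the highest for 8 of 9. TBI rat 1 had the lowest TBI value for 8 of 9 members, all but Cd163, and TBI rat 2 the highest for 7 of 9. Among MASM + TBI rats, rat 4 was lowest for 6 of 9 members and rat 3 for the other 3. The median SD of the members was 0.39 in controls, 0.46 in TBI rats and 0.19 in MASM + TBI rats, beside 0.16, 0.22 and 0.15 over the 21352 probes well above background on all arrays. The markers thus varied more between rats of 1 group than a typical bright probe, above all in the groups of controls and TBI rats. The share of macrophages in each piece of liver was not measured, and its part in this spread was not tested.

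The comparison of TBI with control rats asks how irradiation alone moved the markers. The means of 8 of 9 members were higher in TBI rats and that of Cd163 differed by -0.03, with a median difference of 0.27 over the members beside -0.03 over all 40945 probes tested. By limma with Benjamini-Hochberg adjustment over all probes, 0 of 9 members passed an adjusted p of 0.05, beside 5.63% of all probes, and 1 of 9 had an unadjusted p under 0.05, beside 23.5%. At the thresholds of the study's methods, a fold change of at least 1.5 with an unadjusted p under 0.05, 1 of 9 members was higher (Adgre1), beside 6.53% of all probes, and this count did not hold when single rats were left out: it was 0 without control rat 1 or 3, TBI rat 2 or 3, or MASM + TBI rat 2 or 3, and 3 without TBI rat 1, beside 6.95% of all probes in that fit. With the replicate number as a block, the Adgre1 difference had an unadjusted p of 0.0530 and 0 of 9 passed these thresholds. The size of the difference depended on single rats. The median over the members was 0.47 without TBI rat 1, 0.075 without control rat 1 and 0.095 without TBI rat 2. TBI rats 2 and 3 lay above all 3 controls for 6 of 9 members (Marco, Cd68, Adgre1 and the C1q chains) and for 16.7% of all probes, whereas TBI rat 1 lay within the range of the controls for 8 of 9. Set against the control rat of the same number, TBI rat 1 was higher for 8 of 9 members, and Marco, Cd68, Adgre1 and the C1q chains were higher in TBI rats in 3 of 3 such pairs. The labels do not say what a number marks, and these pairs were taken from correlations in the same data. The share of all probes higher in 3 of 3 pairs was not computed. For Cd68 the pairs differed by 0.37, 0.53 and 0.47, with an unadjusted p of 0.0138 and an adjusted p of 0.168 in the limma fit of these pairs alone. That fit called 0 of all probes at an adjusted p under 0.05. Clec4f, Vsig4 and Cd163 changed sign between pairs. Without TBI rat 1, the Adgre1 difference was 1.57 with an adjusted p of 0.0201, and it was the only member called, beside 4.87% of all probes.

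The comparison of MASM + TBI with control rats asks how far pretreated, irradiated livers differed from unirradiated ones. Clec4f, Cd68, the C1q chains, Marco, Cd163 and Adgre1 had lower means and Vsig4 a higher one, with a median difference of -0.42 over the members beside 0.00 over all probes. By limma 0 of 9 members were called, beside 2.99% of all probes, and 0 of 9 had an unadjusted p under 0.05, beside 17%. At the thresholds of the study's methods 0 of 9 passed in either direction, beside 8.06% of all probes. Clec4f was the 1 member of 9 whose groups did not overlap, lower in MASM + TBI rats, beside 8.9% of all probes. Within the slide that carried both groups, MASM + TBI rat 3 lay below all 3 controls for 6 of 9 members (Clec4f, Marco, Cd68 and the C1q chains), with differences of -0.69 to -0.47 from the control mean, and this rests on 1 rat, which lay below all 3 controls for 25.2% of all probes. Without control rat 1, 4 of 9 members passed the thresholds of the study's methods, all lower, beside 5.17% of all probes lower in that fit.

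The comparison of MASM + TBI with TBI rats asks what the pretreatment changed among irradiated rats. The means of all 9 members were lower in MASM + TBI rats, with a median difference of -0.74 beside 0.04 over all probes. The differences of Adgre1, Cd68, Marco and the C1q chains ran from -1.06 to -0.69, that of Clec4f was -0.53, and those of Vsig4 and Cd163 were -0.15 and -0.04. By limma 0 of 9 members passed an adjusted p of 0.05, beside 1.63% of all probes, while 7 of 9 had an unadjusted p under 0.05, beside 17% of all probes. At the thresholds of the study's methods 6 of 9 members were lower (Marco, Cd68, Adgre1, C1qa, C1qb and C1qc), beside 4.83% of all probes. For 2 of 9 members (Cd68 and C1qa) the groups did not overlap, beside 5.88% of all probes. The 9 members were measured in the same rats, and the C1q chains moved together, so that the count is not one of independent results.

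**Figure D2:**
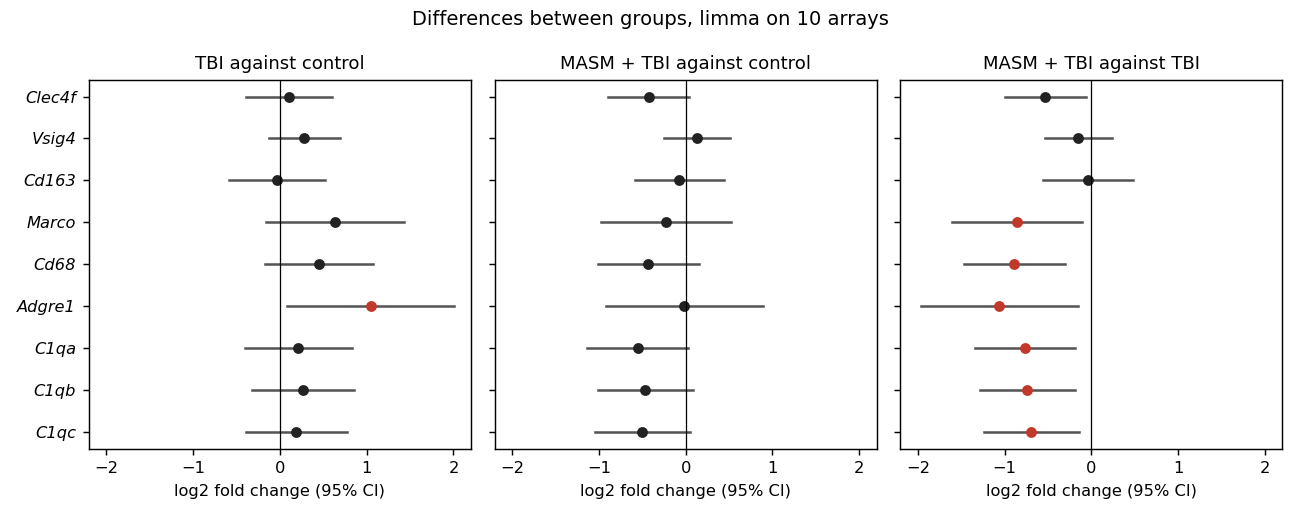
Log2 fold change of each measured marker (points) with its 95% confidence interval (lines) in the 3 comparisons, from limma on all 10 arrays; red points have an unadjusted p under 0.05 and a fold change of at least 1.5. The interval excludes 0 for 1 of 9 markers in TBI against control, for 0 of 9 in MASM + TBI against control and for 7 of 9 in MASM + TBI against TBI, beside 23.5%, 17% and 17% of all probes.

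The individual TBI rats set how large this difference was. TBI rats 2 and 3 lay above all 4 MASM + TBI rats for 7 of 9 members, all but Vsig4 and Cd163, and for 11.5% of all probes, and TBI rat 1 lay at or below the highest MASM + TBI rat for 6 of 9. Without TBI rat 1, Adgre1 (-1.59, adjusted p = 0.0220) and Cd68 (-1.15, adjusted p = 0.0491) were called by limma, the adjusted p of C1qb was 0.0542, and 7 of 9 members were lower past the thresholds of the study's methods, beside 2.98% of all probes called and 5.73% lower past those thresholds. Without TBI rat 2, or without TBI rat 3, 1 of 9 passed them, beside 3.94% and 5.39% of all probes. The sources used here do not say how the methods' t-test treats the variances. Run with unequal variances, the methods' t-test put 0 of 9 members past these thresholds (unadjusted p = 0.0653 for Cd68), and run with equal variances 4 of 9, Cd68 (unadjusted p = 0.0193) and the 3 C1q chains (0.0279 to 0.0316), beside 3.3% of all probes lower.

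**Figure D3:**
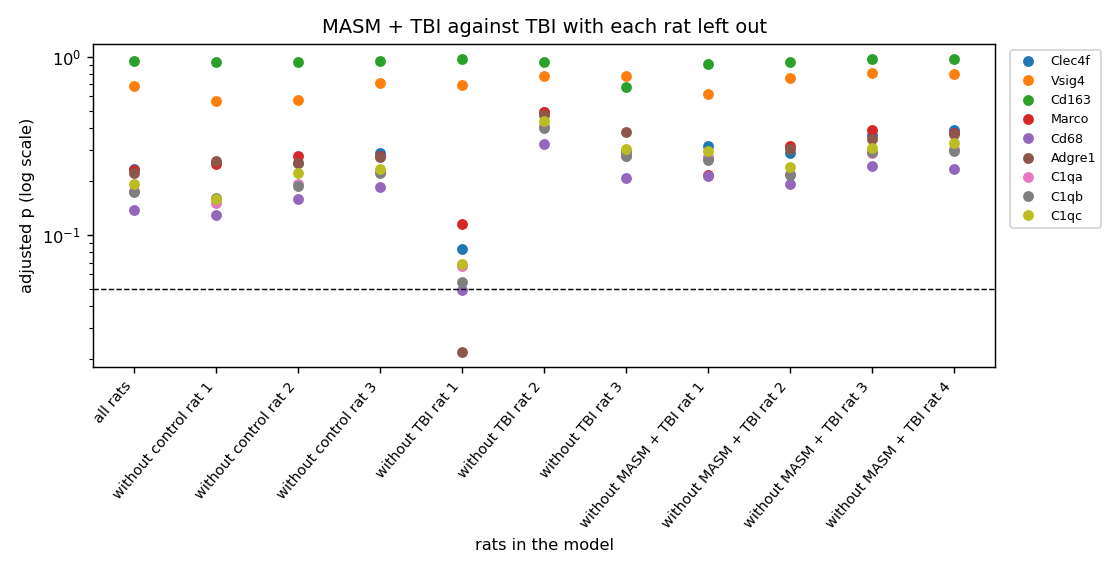
Adjusted p (log scale) of the 9 measured markers for MASM + TBI against TBI, from limma with all 10 rats and with each rat left out in turn, the dashed line marking 0.05. Only the model without TBI rat 1 puts markers below the line, Adgre1 at 0.0220 and Cd68 at 0.0491.

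Other genes of macrophages were described from lists of their receptors and signalling proteins, transcription and growth factors, lysosome and iron handling, and cytokines. Of 24 receptor and signalling genes 21 were measured, and by the brightest probe 0 were called in any comparison. In MASM + TBI against TBI rats all 21 had lower means (median -0.83), 11 of them past the thresholds of the study's methods, beside 4.83% of all probes. That count was 12 without TBI rat 1 and 8 without TBI rat 2 or TBI rat 3, beside 5.73%, 3.94% and 5.39% of all probes. Without TBI rat 1, 11 of the 21 passed an adjusted p of 0.05, beside 2.98% of all probes. In TBI against control rats 15 of 21 had higher means and 3 passed the thresholds of the study's methods, all higher, beside 6.53% of all probes. This count was 10 without TBI rat 1 (6.95% of all probes), where 5 were called (4.87% of all probes), and 1 without TBI rat 2 or TBI rat 3. Set against controls, 17 of 21 had lower means in MASM + TBI rats, and 4 were lower and 0 higher past those thresholds, beside 4.55% and 3.52% of all probes. Ptprc, the leukocyte antigen CD45, had 3 probes, 1 of which was called lower in MASM + TBI rats than in TBI rats (-1.67 ± 0.20 SE, adjusted p = 0.00818) and than in controls (-1.20 ± 0.20 SE, adjusted p = 0.0195). The first call was lost with the replicate block (adjusted p = 0.0754) and by the methods' t-test with either variance. In that block MASM + TBI rat 4 had no rat of the same number and did not enter the difference. The call against controls was lost with the replicate block (0.0756), by the methods' t-test with either variance, with slide as a fixed block (0.233), without control rat 3 (0.0518) and without MASM + TBI rat 1 (0.0570). With normexp background correction the differences were -0.39 and -0.31, and both were called. That probe read 6.21, 6.06 and 6.06 in TBI rats 1 to 3 and 4.15 to 4.75 in the MASM + TBI rats. The brightest Ptprc probe gave -0.83 ± 0.30 (SE, adjusted p = 0.214) against TBI rats, so the probes of this gene disagreed on the call. As an antigen of all leukocytes, Ptprc does not single out macrophages.

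Of 12 lysosome and iron genes 12 were measured, 0 were called, and 6 were lower past the thresholds of the study's methods in MASM + TBI against TBI rats (median -0.74), beside 4.83% of all probes. The count was 7 without TBI rat 1 and 2 without TBI rat 2 or TBI rat 3, beside 5.73%, 3.94% and 5.39% of all probes. Without TBI rat 1, 3 genes passed an adjusted p of 0.05, beside 2.98% of all probes. In TBI against control rats the means of 12 of 12 were higher (median 0.39) and 0 passed either rule. Without TBI rat 1, 6 were higher past the study's thresholds and 2 were called, beside 6.95% and 4.87% of all probes. Between MASM + TBI and control rats 0 of 12 passed either rule. Of 10 cytokine genes 9 were measured and 0 were called. In MASM + TBI against TBI rats 5 were lower past those thresholds (median -0.68), beside 4.83% of all probes. The count was 5, 0 and 2 without TBI rat 1, 2 or 3, beside 5.73%, 3.94% and 5.39% of all probes. Without TBI rat 1, 1 gene was called, beside 2.98%. In TBI against control rats 2 were higher and 1 lower past those thresholds, beside 6.53% and 6.09% of all probes. Without TBI rat 1, 2 were higher and 1 was called, beside 6.95% and 4.87% of all probes, and 0 were lower. Against controls, 3 of 9 were lower and 1 higher past them in MASM + TBI rats, beside 4.55% and 3.52%. Of 11 transcription and growth factor genes 7 were measured and 0 were called. In MASM + TBI against TBI rats 2 were lower past those thresholds (median -0.31), beside 4.83% of all probes. The count was 2, 1 and 0 without TBI rat 1, 2 or 3, beside 5.73%, 3.94% and 5.39%. In TBI against control rats 2 were higher past those thresholds, beside 6.53% of all probes, and 2 without TBI rat 1, 2 or 3. Without TBI rat 1 the share of all probes was 6.95%, and 1 gene was called, beside 4.87%. Of the 7, 1 was lower past those thresholds in MASM + TBI than in control rats, beside 4.55% of all probes. The complement partners of C1q and Vsig4 gave other values: of 10 genes 8 were measured, 0 were called, 0 passed the thresholds of the study's methods in any comparison, and their median difference between MASM + TBI and TBI rats was -0.07. These partners, such as C3 and C1s, are made largely by hepatocytes.

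**Figure D4:**
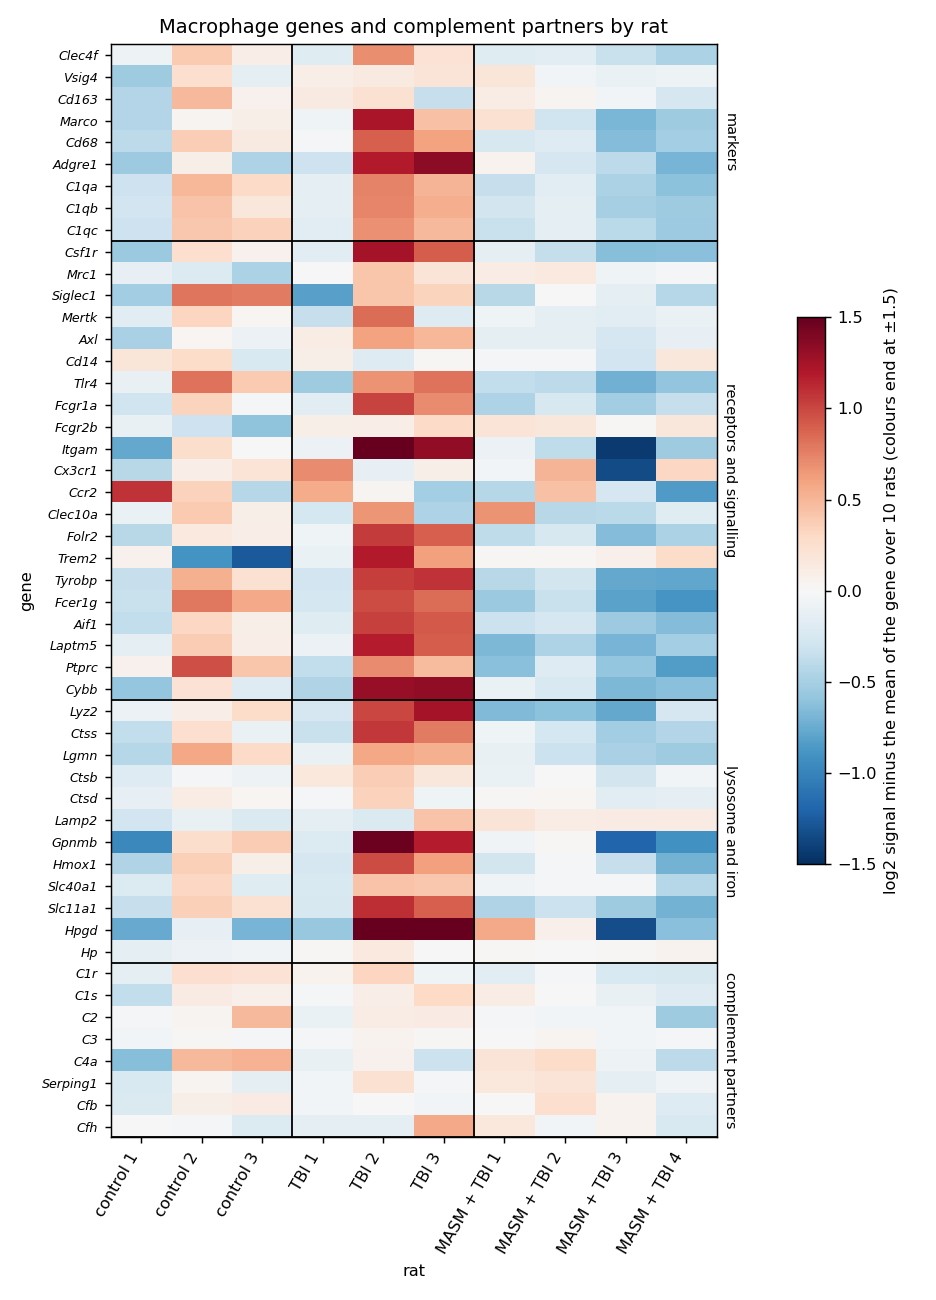
Deviation of the log2 signal of each gene from its mean over the 10 rats (colour, ending at 1.5 on either side of 0), for the 9 markers and for 3 lists of related genes, with rats in columns and the groups parted by vertical lines. Red in TBI rats 2 and 3 and blue in the MASM + TBI rats recur through the markers, receptors and lysosome genes, whereas most complement partners stay pale.

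By likeness of pattern over the 10 rats, the genes closest to the mean of the C1q chains were Gpsm3 (Pearson r = 0.992), Fcer1g (r = 0.990) and Rassf4 (r = 0.990), among 10831 probes with a symbol that were well above background on all arrays. Fcer1g encodes the signalling chain of Fc receptors. The closest to Clec4f included Dennd1c (r = 0.975) and Ggta1 (r = 0.970). For Cd163 they were Stx12 (r = 0.917), Trim69 (r = 0.883) and Vav2 (r = 0.878). These values describe 10 arrays that share groups, slides and rats, and were picked as the highest of many.

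Markers of other liver cells moved beside the macrophage markers in part. The general macrophage list holds Cd68, Adgre1 and the C1q chains beside Csf1r and Mrc1, and all 4 measured genes of the Kupffer cell list are members, so that both lists largely restate the values above. The mean log2 level of the general macrophage list (7 of 7 genes measured, all well above background) ran from 11.39 to 12.01 in controls, from 11.62 to 12.59 in TBI rats and from 11.24 to 11.59 in MASM + TBI rats. That of the Kupffer cell list (4 of 6 measured) ran from 10.43 to 11.10, from 10.80 to 11.38 and from 10.47 to 10.89. T and natural killer cell markers (8 of 8 measured) ran from 6.52 to 7.34 in controls, from 5.32 to 6.36 in TBI rats and from 5.12 to 5.88 in MASM + TBI rats. In either irradiated group 7 of the 8 had lower means than in controls and 1, Lck, a higher mean. By limma 2 of 8 were called lower in each group, beside 5.63% and 2.99% of all probes called. Cd3g was among them (adjusted p = 0.00381 after TBI and 0.00343 after MASM + TBI). B cell markers (3 of 5 measured) ran from 6.35 to 6.64, from 4.85 to 6.52 and from 4.70 to 5.10. By limma 1 of the 3, Cd79b, was called, lower in both irradiated groups (adjusted p = 0.00484 and 0.00378). Cd74 had a higher mean than in controls after TBI and a lower one after MASM + TBI, and was not called. Over 21 alternatives, the Cd79b call was lost in 4 in each comparison: in TBI rats with normexp background correction (adjusted p = 0.0539), in the fit of control and TBI pairs alone (0.135) and by the methods' t-test with either variance, and in MASM + TBI rats with the replicate block (0.0582), slide as a fixed block (0.143) and the methods' t-test with either variance. The Cd3g call in TBI rats was lost in the fit of control and TBI pairs alone (adjusted p = 0.0934) and by the methods' t-test with either variance, and in MASM + TBI rats by the methods' t-test with unequal variances (0.105). In both lists TBI rat 1 was the lowest TBI rat, as for the macrophage markers, and TBI rats 2 and 3 were at 6.36 and 6.34 for the T and natural killer cell markers and at 6.36 and 6.52 for the B cell markers. Cd3e, also called, was well above background on 0 arrays, and no fold is given for these lymphocyte genes since their signal did not clear background in every rat.

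Neutrophil and monocyte markers (7 of 8 measured, 2 of them well above background on no array) ran from 4.91 to 5.66 in controls, from 5.18 to 6.07 in TBI rats and from 4.62 to 5.84 in MASM + TBI rats. Markers of sinusoidal endothelium (5 of 7 measured) ran from 9.51 to 9.90, from 9.56 to 9.87 and from 9.30 to 9.61, and those of hepatocytes (7 of 7 measured) from 14.82 to 15.02, from 14.99 to 15.37 and from 15.02 to 15.28. Stellate cell markers (6 of 6 measured) ran from 9.52 to 9.71, from 9.39 to 9.88 and from 9.34 to 9.53. In either irradiated group 3 of the 6 had higher and 3 lower means than in controls, with medians of -0.01 after TBI and -0.16 after MASM + TBI. Of these, Lrat alone was called, lower than in controls after TBI (by limma -0.62, adjusted p = 0.0116) and after MASM + TBI (-0.60, adjusted p = 0.0147). The former call was lost with the replicate block (adjusted p = 0.0637), in the fit of the pairs alone (0.175), with only the groups compared (0.0664) and by the methods' t-test with either variance. The latter was lost with the replicate block (adjusted p = 0.115), 75th percentile scaling (0.0795), slide as a fixed block (0.129), the methods' t-test with unequal variances (0.177) and without MASM + TBI rat 1 (0.0511). The dimmer Lrat probe was called in the latter comparison under 6 of 21 alternatives. Cholangiocyte markers (2 of 4 measured) ran from 7.42 to 7.94, from 7.43 to 8.27 and from 7.39 to 7.96, and erythroid markers (2 of 4 measured) from 9.32 to 10.72, from 8.42 to 9.88 and from 8.30 to 9.05. The part of other cell types in the differences of the macrophage markers was not tested.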

How the data were processed

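Total RNA of 10 rat livers was hybridised in 1 colour (Cy3). The authors deposited scanner output of Agilent Feature Extraction 10.7, per the file headers: a linear signal intensity per spot, background-subtracted and not normalized between arrays. The series value table held the same numbers and was used as an alternative. Here outlier and control spots were left out, spots of a probe were averaged, and log2 values were quantile normalized, as in the study's methods. Of 41012 probes, 40945 had a value on every array. Scanner files named probes by accession, matched to RefSeq symbols (16968 probes). A gene was represented by its brightest probe.

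Groups and replicate numbers came from the sample labels. Limma 3.58.1 (R 4.3.3) was fitted with a mean per group over all 10 arrays, with Benjamini-Hochberg adjustment over all probes; a probe was called at an adjusted p under 0.05, and a second rule used the study's thresholds. The procedure was tested on simulated data with known changes. Of log2 changes of 0.5, 7.46% to 8.96% were called over the 3 comparisons, of changes of 1, 43.3% to 56.7%, and of changes of 2, 74.2% to 90.9%. A member that was not called is therefore not shown to be unchanged. P-values measure the spread between rats of a group and not differences between slides, and the number of arrays limits the precision. The members, gene lists and tests were chosen with earlier results of these data known. Named were all members with every probe, list genes called in any comparison, and the 3 most alike genes for Clec4f, Cd163 and the mean of the C1q chains, of which 1 is not reported here.

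Same-numbered control and TBI rats deviated together (correlations 0.267, 0.159 and 0.136 over probes), so that the numbers paired these groups by the rule that every correlation exceed 0.1; pairs with MASM + TBI rats did not meet it. Alternatives were 75th percentile scaling, normexp background correction, the value table, a filter on dim probes, the methods' t-test with unequal or equal variances, a model of only the compared groups, a trended robust prior, the mean of probes, blocks of replicate number and slide, and leaving out each rat. The figures were drawn with matplotlib.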

Additional observations from a re-analysis of the deposited data

How the results depend on the processing

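The number of members called at an adjusted p under 0.05 was 0 in every comparison under every alternative except without TBI rat 1. With each rat left out, it ranged from 0 to 1 in TBI against control rats, was 0 throughout in MASM + TBI against control rats, and ranged from 0 to 2 in MASM + TBI against TBI rats. The median difference of the members kept its sign under every alternative but moved with single rats: leaving out each rat gave 0.075 to 0.47 in TBI against control rats, -0.53 to -0.27 in MASM + TBI against control rats and -0.996 to -0.52 in MASM + TBI against TBI rats. Counts past the thresholds of the study's methods moved more. In TBI against control rats they were 1 with all rats, 0 with only the groups compared, 0 by the methods' t-test with unequal or with equal variances (the latter chosen after seeing the data), 0 with the replicate block, 0 with the replicate block and only control and TBI rats (also chosen after seeing the data), 2 with slide as a random block, and 0 to 3 with each rat left out. In MASM + TBI against control rats they ranged from 0 to 4, and in MASM + TBI against TBI rats from 1 to 7, with each rat left out; the latter count was 0 by the t-test with unequal and 4 with equal variances, and 4 with the replicate block, against 6.

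Over all probes, the counts called in TBI against control rats were 2305 (998 higher), 7458 (1814 higher) with 75th percentile scaling, 972 with only the groups compared, 10 and 154 by the t-test with unequal and equal variances, 1053 with the replicate block, 0 with the replicate block and only control and TBI rats, 6742 with slide as a random block, and 969 to 2787 with each rat left out. In MASM + TBI against control rats they were 1225, and 815 with 75th percentile scaling, 40 and 551 by these t-tests, 298 with the replicate block, 2852 with slide as a random and 536 as a fixed block, and 490 to 1488 with each rat left out. In MASM + TBI against TBI rats they were 666 (373 higher), 5459 (4497 higher) with 75th percentile scaling, 263 with only the groups compared, 4 and 58 by these t-tests, 22 with the replicate block, 2048 with slide as a random block, and 250 to 1268 with each rat left out. The cause was not tested.

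Members near 0 changed sign, without being called. Cd163 in TBI against control rats was 0.018 with normexp and 0.037 with the mean of its probes, and -0.27 to 0.19 with each rat left out. Clec4f ranged from -0.12 to 0.32, C1qa from -0.018 to 0.47 and C1qc from -0.038 to 0.44 in that comparison. In MASM + TBI against control rats Adgre1 was 0.018 with 75th percentile scaling, 0.0045 with normexp, 0.11 with the replicate block and 0.0011 with slide as a random block, and -0.14 to 0.18 with each rat left out; Cd163 ranged from -0.31 to 0.15 and Vsig4 from -0.067 to 0.33. In MASM + TBI against TBI rats Cd163 was 0.031 with the replicate block and -0.21 to 0.072 with each rat left out. Outside the members, the Ptprc probe was called lower in MASM + TBI than in TBI rats under 17 of 20 alternatives, all but both t-tests and the replicate block, and lower than in controls under 15 of 21, but its differences shrank from -1.67 to -0.39 and from -1.20 to -0.31 with normexp.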
